A study of Drosophila melanogaster with 30 samples.

Results

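The region described here is the centromere-side end of the left arm of chromosome 2 (2L) in Drosophila melanogaster, from 21 Mb to the end of the assembled arm at 23.51 Mb (build dm6), in wing imaginal discs of wandering late larvae. It was chosen by position alone, as every 100 kb timing window whose midpoint lies at or beyond 21 Mb and every RNA entry in the same span. It holds 257 of 13389 windows in each female table of a mutant with its control, 242 of 13562 windows in the male table and 252 of 13493 bins of 10 kb in the table for the strain yw. It holds 149 of 11505 RNA entries in the male table and 121 of 10775 in the female table. Windows move in 10 kb steps, so neighbouring windows share most of their DNA and are not independent observations. Windows that reach the end of the arm are cut short there.

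The span contains the replication-dependent histone gene cluster, which RefSeq places at 2L 21416953 to 21541681 in Release 6 of the genome. Its annotation lists 111 histone genes there, namely 23 of His1, 20 of His2A, 23 of His2B, 23 of His3 and 22 of His4. These genes are transcribed in S phase in a nuclear structure called the histone locus body, and their mRNAs end in a stem loop and not in a poly(A) tail. Proximal of the cluster the arm passes from euchromatin into pericentromeric heterochromatin, which is rich in repeats, carries methylated lysine 9 of histone H3 (H3K9), and is known to replicate late in S phase. Some protein-coding genes lie inside it, among them light (lt), which acts in vesicle transport to lysosomes and pigment granules, and concertina (cta), a G protein alpha subunit needed in gastrulation. Acetylation of lysine 16 of histone H4 (H4K16) is best known in flies for the raised output of the male X chromosome.

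The study replaced the native cluster with a transgene. Larvae of the genotypes HWT, H4K16R and H3K9R were all selected as ΔHisC, UAS-2xEYFP / ΔHisC, twi-GAL4, where ΔHisC is the deletion of the histone cluster and the EYFP driven by twi-GAL4 served to pick the deletion animals. Each carried an array of 12 copies of a 5 kb histone repeat, wild type in HWT, with arginine in place of lysine 16 of H4 in H4K16R, and with arginine in place of lysine 9 of H3 in H3K9R. The strain yw, used in females only, has no such label and serves as the genotype with its own cluster. HWT is therefore a control for the mutation and shares the deletion, the array and the driver with the mutants. For the timing samples the labels list the fathers of H4K16R and H3K9R without ΔHisC, though deletion animals are said to have been picked, so the absence of the native cluster is less certain there. RNA was sequenced from 3 libraries per group of 30 discs each, for HWT and H4K16R in both sexes. Replication timing was taken as the ratio of DNA from S phase nuclei to DNA from G1 nuclei, sorted by DNA content, from 2 S libraries and 1 G1 library per group. A high log2 S/G1 marks early replication. The deposited files give 1 timing value per group and window and 1 RNA fold change per comparison and entry, so no value per library can be shown and no spread between libraries can be given. The labels do not say whether libraries came from separate crosses, so the deposited p-values measure the spread between libraries only. The depth of the libraries is unknown from these files.

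The edge of the region is set by position only. The window just inside it read 0.058 in HWT females and 0.074 in H4K16R females, and the window just outside read 0.066 and 0.075. CG42238, the RNA entry that straddles the edge, stood at -0.13 in males and 0.18 in females on the log2 scale in the authors' deposited table and passed the threshold in neither sex.

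Marker genes of several tissues were looked up. All 8 markers of the wing disc epithelium were listed in both sexes. So were all 5 of the fat body, so being listed does not establish tissue identity. In H4K16R males 2 of the 8 epithelium markers were lower, beside 10.3% of all male entries. All 5 fat body markers were lower, with a median log2 fold change of -2.56 over the authors' deposited table. In females none of the 5 fat body markers passed the threshold, and their median was -0.94 in the authors' deposited table. The salivary gland list had 4 listed genes, none past the threshold, with medians of -3.04 in males and -0.99 in females in the authors' deposited table. The hemocyte list had no gene past the threshold in either sex. All 4 markers of adult muscle precursors were listed in both sexes, and none passed. Fat body RNA therefore moved with genotype in the male comparison. Its part in the results below was not tested.

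In RNA, the cluster itself was blank. Neither table lists an entry inside it. In males the last entry before it ends at 21413652 and the next begins at 21554357, a gap of 140.7 kb, and in females the gap was 172.6 kb. The tables therefore give no reading of histone mRNA from the native locus or the array. Most genes that supply or process histones from elsewhere did not pass the test. Of 12 such genes listed in males 2 were lower in H4K16R and none was higher, with a list median of -0.022 in the authors' deposited table against 0.076 over all entries on the large autosomes. These were His3.3B, 1 of the genes for the replacement histone H3.3, at -0.48 (adjusted p 0.0154, authors' deposited table), and mxc, the scaffold of the histone locus body and the fly counterpart of NPAT, at -0.69 (adjusted p 5.96e-05, authors' deposited table). Both lie on the X chromosome, where 44.6% of male entries were lower, and 10.3% of all male entries were lower. In females 12 were listed and none passed the threshold.

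More RNA entries passed the test of H4K16R against HWT in males than in females, over the whole genome and in proximal 2L alike. In males 27 of 149 entries passed an adjusted p of 0.05 (18.1%), beside 15.6% of all male entries and 9.48% of those on the large autosomes. Of the 27, 18 were higher in H4K16R (5.35% of all entries, 6.09% on the large autosomes) and 9 were lower (10.3% of all entries, 3.39% on the large autosomes). The median log2 fold change of the span was 0.19 in the authors' deposited table, beside 0.076 over the large autosomes. With Holm adjustment in place of the deposited one 7 of the 27 calls held. In females 1 of 121 entries passed (0.826%), beside 0.974% of all female entries and 0.955% on the large autosomes. It was a lower one, beside 0.613% lower and 0.362% higher among all female entries, and 0.591% and 0.364% on the large autosomes. A further 15 female entries would pass an unadjusted p of 0.05 recovered from the deposited values, for 16 in all, beside 11.6% of all female entries. By zone, the male calls were 8 of 66 entries in the distal flank, 9 of 30 in the proximal flank up to 22 Mb and 10 of 53 in the pericentromeric part beyond. Direction also varied, with 6 higher and 2 lower in the distal flank, 8 and 1 in the proximal flank, and 4 and 6 in the pericentromeric part. Entries were named here where they matched a RefSeq gene by an overlap above 0.9 of both lengths. Unnamed entries held 13 calls among 53, some of them over annotated genes, and named entries held 14 among 96. The split rests on this naming rule.

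**Figure D1:**
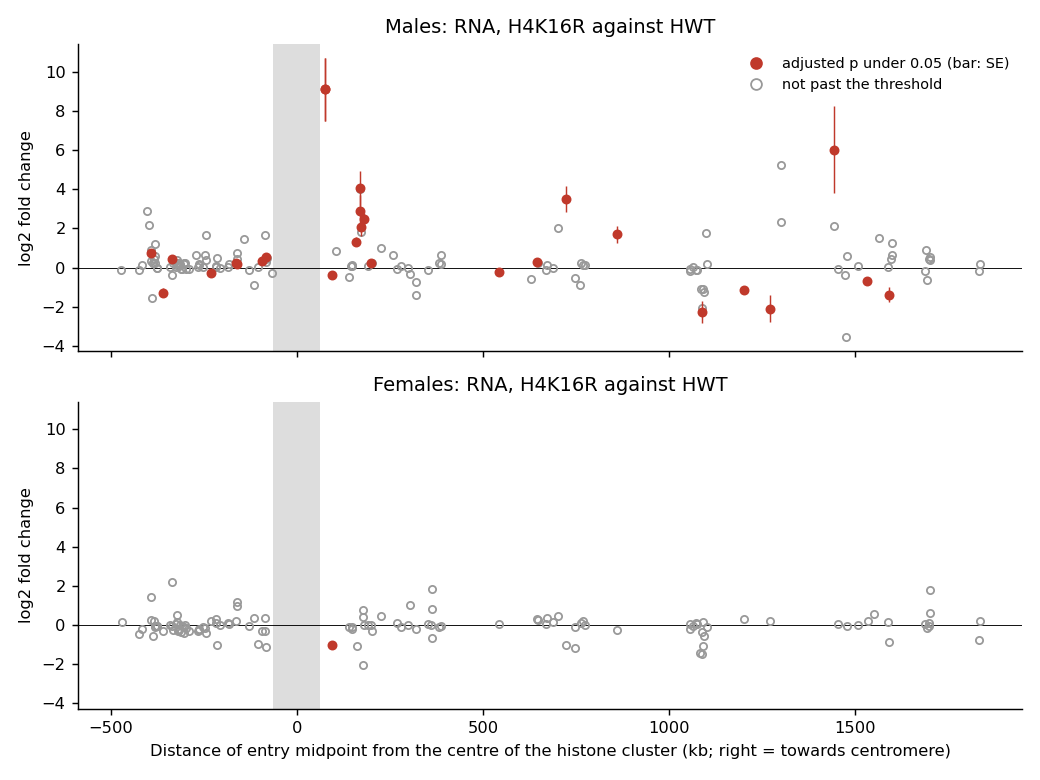
Log2 fold change of H4K16R against HWT for every RNA entry of the span, by distance of the entry midpoint from the centre of the histone cluster (kb), males above and females below. Filled points passed an adjusted p of 0.05, with bars of 1 standard error recovered from the deposited p, and the grey band is the cluster: 27 of 149 male entries and 1 of 121 female entries are filled.

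The highest fold change in males lay just proximal of the cluster. From the proximal end of the cluster up to and including the entry of Cul2, 8 of 15 male entries passed the threshold, 7 of them higher, beside 15.6% called and 5.35% higher among all male entries. The end of this stretch was set after the calls were seen, so its count is a description only, and 2 of the 8 are nested entries with the same value. The nearest, an unnamed pair of nested entries at 21554357 to 21554714 only 12.7 kb from the cluster, stood at 9.10 on the log2 scale (adjusted p 2.85e-06, authors' deposited table). That is the highest fold change of the male table. No matching entry is listed in females, and no library values are at hand to show whether the HWT libraries were at 0, so the size of this change cannot be interpreted as a fold. Lamp1, a membrane glycoprotein of lysosomes, came next at 31.7 kb and was the gene nearest the cluster on this side. It fell in both sexes: by 0.37 in males (adjusted p 0.0103, authors' deposited table), and by 1.04 in females (adjusted p 0.000224, authors' deposited table). It was the only entry of the span called in females. The difference between the sexes for Lamp1 was 0.67 ± 0.23 (SE) and missed the threshold (adjusted p 0.0501, from the edgeR values of both sexes). It passed when entries were matched by overlap above 0.8 (adjusted p 0.0435, edgeR values). The Lamp1 entry has the same coordinates in both sexes, so its difference was unchanged. This call rests on which other entries enter the adjustment.

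Farther out, 7 male entries covered 34.3 kb from 21630029 to 21664300, starting 88.3 kb from the cluster. All 7 were above 0 in H4K16R, the lowest at 1.32, and 5 of them passed the threshold. Among all male entries 5.35% were called higher. The block is part of the stretch above, whose end was set after the calls were seen. The block opens with the entry that holds Ac3, an adenylate cyclase, at 1.32 (adjusted p 1.55e-06, authors' deposited table), a 2.49-fold higher level. A set of 3 short unnamed entries between 21648516 and 21652709 followed, at 2.89, 4.05 and 2.09 in the authors' deposited table. It ends with an entry at 21653250 to 21664300 that spans Cul2, a scaffold of ubiquitin ligases, and the non-coding gene lncRNA:CR43144, at 2.49 (adjusted p 6.63e-13, authors' deposited table), a 5.61-fold higher level. Females showed another picture here. Ac3 was listed at -1.07 in females and just missed the threshold (adjusted p 0.0531, authors' deposited table), and Cul2 alone was listed at -0.0072 (adjusted p 0.990, authors' deposited table). The male and female Cul2 entries differ in extent, so they were not compared by a test. The Ac3 entries overlap by over 0.8 of their length, and there the male minus female difference was 2.39 ± 0.38 (adjusted p 1.09e-06 by edgeR values, a matching rule chosen after the data were seen).

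**Figure D2:**
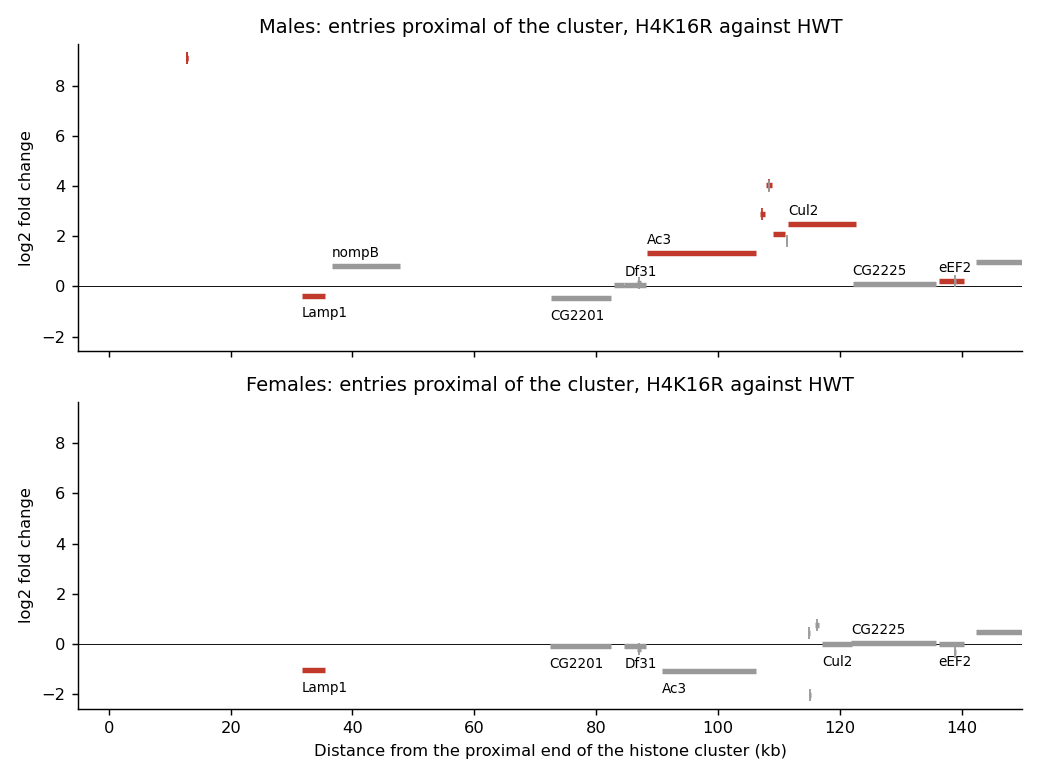
RNA entries within 150 kb of the proximal end of the cluster, drawn as bars over their extent (kb from that end) at their log2 fold change, males above and females below; red bars passed an adjusted p of 0.05. In males the nested pair at 9.10 and the block from Ac3 to Cul2 between 1.32 and 4.05 are higher, while in females only Lamp1 at -1.04 is red.

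The higher block ended at Cul2. CG2225, directly beyond Cul2, stood at 0.081 in males (adjusted p 0.552, authors' deposited table). Next to it eEF2, the translation elongation factor that moves the ribosome along the mRNA, was higher by 0.22 in males (adjusted p 0.0203, authors' deposited table), and read -0.017 in females (adjusted p 0.970, authors' deposited table). Between Lamp1 and the block no male entry passed the threshold. These were nompB, a protein of ciliary transport, at 0.83, CG2201 at -0.46, lncRNA:CR43148 at 0.060, Df31, a small protein of open chromatin, at 0.059, and lncRNA:CR44993, which overlaps Df31, at 0.13, none called (lowest adjusted p 0.232, authors' deposited table). Of these CG2201, Df31 and lncRNA:CR44993 were listed in females, at -0.081, -0.077 and -0.21 in the authors' deposited table, with none past the threshold.

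On the distal side the changes were smaller. The gene nearest the cluster there is nrv3, a beta subunit of the sodium and potassium pump. It was higher in H4K16R males by 0.35 (adjusted p 0.0329, authors' deposited table) and read -0.31 in females (adjusted p 0.452, authors' deposited table). An unnamed entry that overlaps its end and runs to 21400845 was higher in males by 0.54 (adjusted p 0.00217, authors' deposited table). The next genes outward did not pass in either sex. In males CG8665 stood at 0.032, dtr at -0.90, Tsp39D, a tetraspanin, at -0.13 and dimm, a transcription factor of neuroendocrine cells, at 1.48, none of them called (adjusted p from 0.301 up to 0.973, authors' deposited table). The standard error recovered for dimm was 0.92, so a change of that size could not be resolved.

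Farther out in the distal flank crc, the fly counterpart of the stress factor ATF4, was higher in males by 0.25 (adjusted p 0.0140, authors' deposited table), and Hr39, a nuclear receptor, was lower by 0.29 (adjusted p 0.0187, authors' deposited table). The largest fall among the called entries of this flank was at the joint entry of Nhe2, an exchanger of sodium ions and protons, and CG46307, at -1.29 in males (adjusted p 4.86e-06, authors' deposited table), against -0.31 in females (adjusted p 0.270, authors' deposited table). An entry over CG33509 and ppk13, a subunit of a sodium channel, was higher by 0.73 in males (adjusted p 0.000342, authors' deposited table). Ret, a receptor tyrosine kinase, was at -0.066 in males and -0.30 in females with no call in the authors' deposited table. A pair of genes of DNA replication in this flank, named after their values were seen, was also not called. Mcm10, which acts in replication initiation, stood at -0.096 in males and -0.15 in females, and E2f2, a repressing E2F factor, at 0.023 and 0.059, per the authors' deposited table.

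In the pericentromeric part the named genes moved in both directions in males. Ir40a, an ionotropic receptor of humidity-sensing neurons, was higher by 3.52 (adjusted p 1.18e-05, authors' deposited table). Marf1, listed over 60042 bases and known for its role in oocytes, was higher by 1.70 (adjusted p 0.00212, authors' deposited table). The lower entries included an unnamed one at 22566285 to 22567384 at -2.27 (adjusted p 0.00123, authors' deposited table) and the 151024 base entry over CG40006 at -1.14 (adjusted p 3.02e-06, authors' deposited table). At the proximal end of that long entry lncRNA:CR43927 stood at -2.10 (adjusted p 0.0198, authors' deposited table), and the overlap means that both values may share reads. Cht10, a chitinase, was lower by 0.68 (adjusted p 0.0121, authors' deposited table) and lncRNA:CR43242 by 1.38 (adjusted p 0.00438, authors' deposited table). A short unnamed entry at 22923305 to 22923659, just distal of lt, stood at 6.02 (adjusted p 0.0450, authors' deposited table), with the same limit on its size as the entry beside the cluster.

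Of the paired zinc finger genes of the span 1 passed the test in males. The gene teashirt (tsh), which patterns the trunk and the proximal wing, stood at -0.11 in males (adjusted p 0.323, authors' deposited table), while its paralogue tiptop (tio) was lower by 0.24 (adjusted p 0.0483, authors' deposited table). The difference between these 2 values was not tested. Neither passed in females, at 0.040 and 0.057 in the authors' deposited table.

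The genes RpL5, lt, cta and Clamp did not pass the threshold in either sex. RpL5, a protein of the large ribosomal subunit, read -0.063 in males and 0.037 in females in the authors' deposited table. The gene lt read -0.067 and 0.029, and cta 0.061 and 0.0014 (authors' deposited table). No adjusted p of these 3 genes was under 0.612. Clamp, a zinc finger protein that binds GA repeats at the male X and at the histone locus and which itself lies in this span, read -0.048 in males (adjusted p 0.763) and 0.16 in females (adjusted p 0.539), per the authors' deposited table.

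The sexes were compared directly where both tables list an entry at identical coordinates. In the span 4 of 71 such entries differed, beside 6.32% of 8264 entries over the genome and 3.39% of those on the large autosomes, and in all 4 the male value was the higher. The male minus female difference was 4.52 ± 1.01 (SE) for Ir40a (adjusted p 0.00102), 1.95 ± 0.53 for Marf1 (adjusted p 0.00947), 0.65 ± 0.20 for nrv3 (adjusted p 0.0281) and 0.47 ± 0.15 for pths (adjusted p 0.0305), all from the deposited edgeR values. With entries matched by an overlap above 0.9 of both lengths 9 of 88 differed, beside 8.04% over the genome, and then 4 of the 9 were lower in males, so the shared direction depends on the matching. With an overlap above 0.8, chosen after the data were seen, 11 of 94 differed, beside 8.18% over the genome, 5 of them lower in males. Among these were Nhe2 with a difference of -0.98 ± 0.27 (adjusted p 0.00783, edgeR values), Hr39 at -0.49 ± 0.14 (adjusted p 0.01002, edgeR values), Cht10 at -0.86 ± 0.24 (adjusted p 0.00814, edgeR values) and the CG40006 entry at -1.47 ± 0.26 (adjusted p 8.28e-06, edgeR values).

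Replication timing followed the same landscape in every genotype and both sexes. The distal flank was early, with medians over 42 windows of 0.037 in yw, 0.047 in HWT females, 0.068 in H4K16R females, 0.080 in H3K9R females, and 0.035 in both HWT and H4K16R males. The HWT female profile deposited beside H3K9R had a median of 0.10 there, and H3K9R is to be read against that profile. The proximal flank was near the middle of the autosomal range, with medians over 45 windows from 0.010 in HWT males to 0.070 in H3K9R females. The pericentromeric part was later in all profiles, with medians of -0.089 in yw, -0.035 in HWT females, -0.063 in H4K16R females, -0.032 in H3K9R females, -0.11 in HWT males and -0.12 in H4K16R males. In the HWT female profile deposited beside H3K9R the median was -0.068. Between 17.3% and 27.9% of autosomal windows were later than these medians, depending on the profile. In the last 200 kb of the arm the medians fell to between -0.17 and -0.37, and at most 5.83% of autosomal windows were later.

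Away from the windows over the cluster and at 22.8 Mb, described further on, the profiles rose and fell at like places. An early peak, centred between 21.76 Mb and 21.85 Mb, lay over tsh or, in H4K16R, just distal of it, with 0.042 in yw, 0.070 in HWT males and 0.074 in H4K16R males. A further early peak lay at 22.13 Mb to 22.15 Mb beside Clamp, from 0.013 in yw to 0.12 in HWT females of the table shared with H3K9R. A late trough followed at 22.39 Mb to 22.45 Mb, centred proximal of Marf1, with -0.16 in yw, -0.25 in H4K16R females, -0.23 in HWT males and -0.21 in H4K16R males. The profiles rose again at 22.52 Mb to 22.58 Mb over RpL5 and its neighbours, from -0.024 in yw to 0.063 in HWT females. They dropped once more over CG40006, where the window at its middle read -0.11 in yw, -0.093 in HWT females and -0.20 in HWT males. The last rise was centred between 22.97 Mb and 23.02 Mb, over cta and Cht10, in both genotypes of the second female table, at 23.04 Mb in H4K16R males, and proximal of these genes in yw at 23.1 Mb and in HWT males at 23.18 Mb. The window at cta read -0.047 in yw, 0.030 in HWT and in H4K16R females, 0.077 in H3K9R females, -0.068 in HWT males and -0.034 in H4K16R males. The HWT female profile deposited beside H3K9R read 0.039 at cta. The final decline led to the end of the arm, where the last window read -0.28 in yw, -0.41 in H3K9R females, -0.65 in HWT males and -0.50 in H4K16R males. That window is cut short and spans only 23510001 to 23513712.

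**Figure D3:**
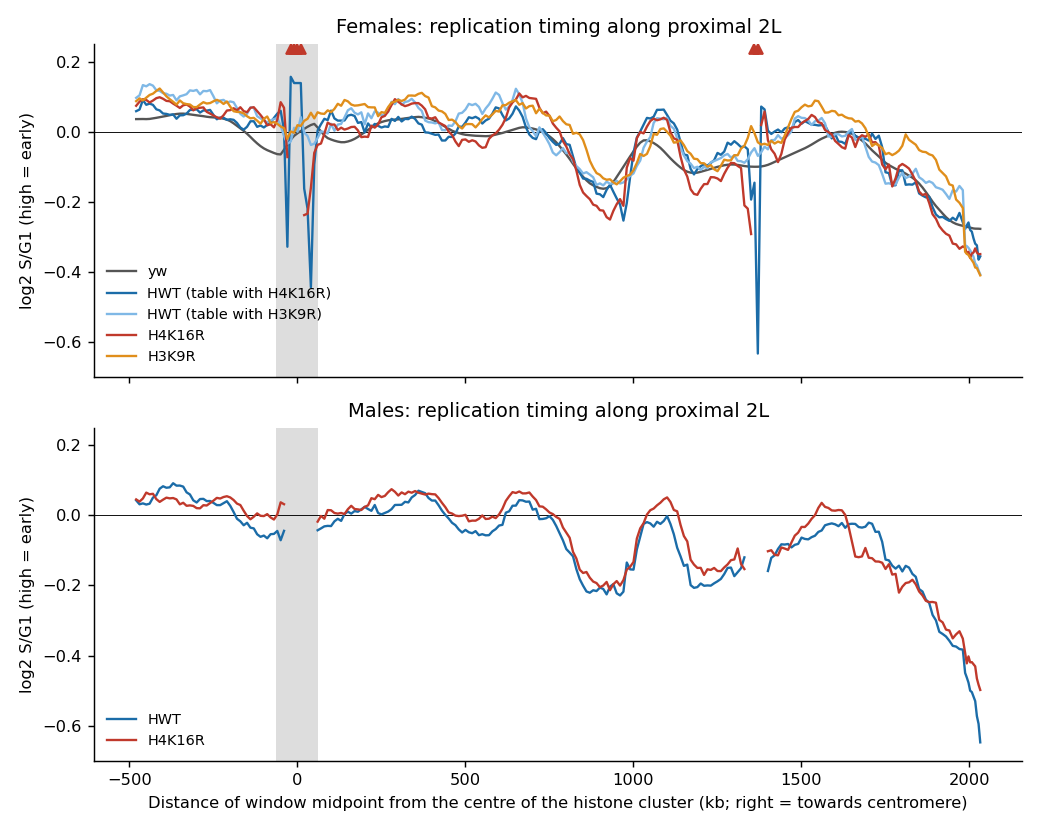
Log2 S/G1 of every 100 kb window by distance of its midpoint from the centre of the histone cluster (kb), females above and males below, 1 line per group; the grey band is the cluster, triangles at the top mark windows above the axis, and gaps are windows not listed. The lines share peaks and troughs and end low, with the male lines at -0.65 and -0.50 in a last window cut short by the end of the arm.

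Early windows also held more transcribed entries. The male table listed 15.8 RNA entries per 100 kb in the distal flank, 6.55 in the proximal flank, 3.50 in the pericentromeric part and none in the cluster. Over 26 windows that do not overlap (24 in males) Spearman's rho between the number of male entries and timing ranged from 0.64 to 0.82 across the profiles. Female profiles were thus also set against entries of the male RNA comparison. The last of these windows, 23500001 to 23513712, is cut short and holds 0 entries. Pearson's r ranged from 0.57 to 0.67, except in H4K16R females at 0.086, where rho was 0.68. That profile read 1.47 at 22800001 to 22900000, a window with 0 entries that is not listed for males and is described below. Pearson's r without that window was not computed. The profiles share the same windows and the same entries, so these values are a description only.

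Proximal 2L was the least late of the centromere-side blocks compared. The block of 3L from 23 Mb had medians from -0.13 to -0.22, that of 3R up to 4 Mb from -0.20 to -0.48, and that of X from 22 Mb from -0.14 to -0.25. Each profile put pericentromeric 2L above all 3 of these. The blocks differ in length, from 157 windows on 2L to 517 on 3L, and this difference in medians has no test.

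**Figure D4:**
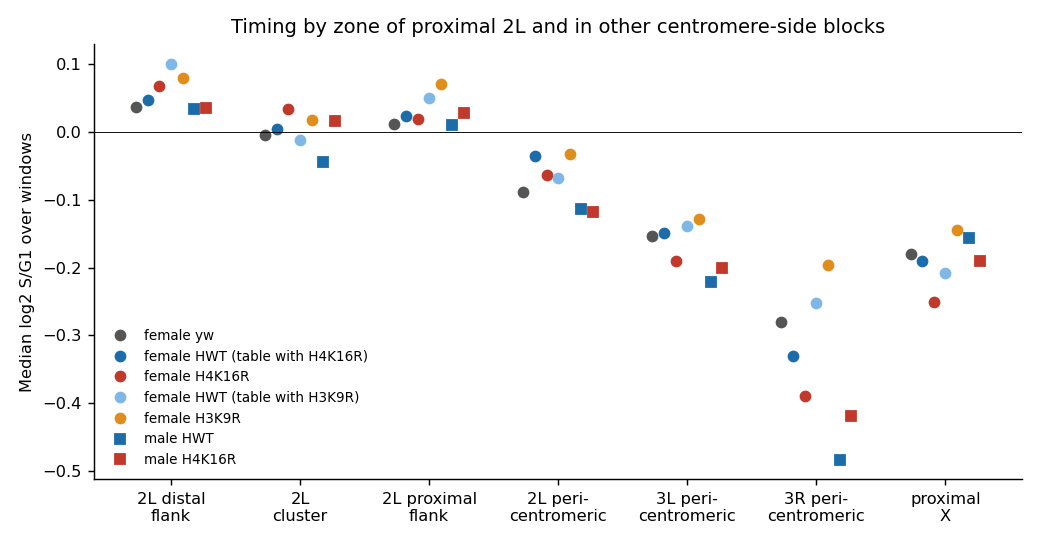
Median log2 S/G1 over the windows of each zone of proximal 2L and of the other centromere-side blocks, 1 point per group, circles for females and squares for males. In each group the 2L pericentromeric point (-0.12 to -0.032) lies above the points for 3L, 3R and X.

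Over the cluster itself the timing tables disagreed. Where the cluster is deleted a window there does not report the native locus. The male table leaves out 9 successive windows from 21400001 to 21580000, and 6 more from 22770001 to 22920000. The female table of HWT and H4K16R lists them, and its 6 highest H4K16R ratios are among them. Its linear S/G1 for H4K16R passed 1.5 in only 6 windows of the whole table, and all 6 are in this span and not listed for males. Of these, 4 touch the cluster, at ratios of 1.74, 3.15, 2.88 and 2.88, and the others at 22790001 and 22800001 read 2.74 and 2.77. HWT in the same table swung between 0.735 and 1.11 in the windows over the cluster, and 3 successive windows there carried the same value, 1.10. The second female table shows none of this: HWT ranged from -0.038 to 0.041 in the windows centred on the cluster and H3K9R from -0.021 to 0.055, both as log2. The male table lists 14 of 23 windows touching the cluster. The 4 of them centred on it read from -0.071 to -0.043 in HWT and from -0.018 to 0.037 in H4K16R, and H4K16R was the higher in all 4, by 0.025 to 0.11. The highest of these differences, at 21380001 to 21480000, passed the 0.1 used below for a shift, and there HWT males were also later than HWT females by 0.13.

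In yw, whose cluster is not labelled as deleted, the distal part of the cluster read between -0.071 and -0.054, close to its distal neighbours, whose median was -0.041. A step up to 0.080 covered 3 bins from 21480001 to 21510000, and the values then declined to -0.0025 at the proximal end and -0.035 from 21600001 on. The 12 bins inside the cluster had a median of -0.028, beside -0.026 in the 100 kb proximal of it. The 3 bins carry the same value, so the step has no finer position than this.

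Timing differences between genotypes were small. A shift was counted where a window differed by at least 0.1 on the log2 scale, and no test was possible. The HWT female profile was deposited in both female tables and gives a gauge: its values differed between them with an SD of 0.066 over the span, and 12 of 257 windows were apart by 0.1 or more. Over the large autosome arms the SD was 0.033 and 1.4% of windows were that far apart, and without the windows touching the cluster 5 of 234 were. Most of the 12 are windows not listed in males, and the largest gap, -0.56, was at 22800001 to 22900000. In the distal and proximal flanks 0 windows were that far apart, so the gauge over the span is set largely by those unlisted windows. The HWT profiles also differed in level. The median difference, profile beside H4K16R minus profile beside H3K9R, was -0.038 over these arms and -0.019 over the span. H4K16R males were earlier than HWT males in 5 of 242 windows (background 1.12%) and later in 1 (background 0.745%), with a median difference of 0.027, and 188 of 242 windows were above 0. With each profile brought to the same spread no window was past 0.1 in either direction. The highest difference, 0.15, was in the last window of the arm, which spans only 23510001 to 23513712. The lowest, -0.10, was at 23130001 to 23230000. Of the 5 earlier windows 3 lay from 23490001 to 23513712 and are cut short by the end of the arm. In females H4K16R was earlier than HWT in 12 of 257 windows (background 0.785%), 8 of which are windows the male table does not list over the cluster and at 22.8 Mb, and later in 3 (background 1.95%). Without the windows not listed in males 4 remained earlier and 2 later. With HWT taken from the other female table the counts were 7 earlier and 23 later, so their balance turns with the HWT profile used. That exchange carries the offset in level between the HWT profiles, which was not removed. The median difference was -0.0054. The highest was 2.10 at 22800001 to 22900000, and outside those windows the largest earlier run lay at 22120001 to 22240000 beside Clamp, at up to 0.11. In the pericentromeric part the median was 0.032 in males and -0.021 in females, a difference that has no test. The same medians were 0.023 and -0.042 in the 3L block, 0.046 and -0.061 in the 3R block, and -0.016 and -0.044 in the X block. The opposite signs in the sexes were thus not particular to 2L.

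H3K9R females were earlier than HWT in 4 of 257 windows (background 1.4%) and later in none (background 0.8%). These 4 lay in 2 pericentromeric runs, at 22200001 to 22310000 and at 23240001 to 23350000, and the highest difference was 0.12. The median difference was -0.012 in the distal flank, 0.020 in the proximal flank and 0.024 in the pericentromeric part, where 107 of 157 windows were above 0. For H3K9R the medians were 0.0099 in the 3L block, 0.048 in the 3R block and -0.0093 in the X block. With HWT taken from the other female table the span held 28 earlier and 6 later windows, so these counts rest on which HWT profile is used. The offset in level between the HWT profiles enters these counts too.

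HWT females, which lack the native cluster, were compared with yw females, for which no deletion is labelled. Of 257 windows 15 were earlier in HWT (background 0.588%) and 8 later (background 0.769%). Of these, 6 earlier and 5 later windows are centred on the cluster, and 9 and 3 remained without the windows that touch it. Of those that remained, 2 earlier windows at 22810001 to 22920000 and 1 later window at 22800001 to 22900000, at -0.53, are not listed in males. Leaving out only the windows not listed in males gave 9 earlier and 2 later. The 7 windows from 22500001 to 22660000, around RpL5, formed the longest run away from the cluster, with a median of 0.11. Over the flanks the medians were 0.015 distal and -0.00011 proximal. The median over the span was 0.011 and turned to -0.0029 once each profile was centred on its autosomal median, with 9 earlier and 11 later windows. With the HWT profile deposited beside H3K9R, 8 were earlier and 3 later, with the offset between the HWT profiles left in.

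HWT males were later than HWT females in 35 of 242 windows (background 6.52%) and earlier in none (background 1.18%). Of these 35, 34 were pericentromeric, among 151 windows, and 15 formed 1 run at the end of the arm from 23370001 with a median of -0.21. Some windows of this run are cut short by the end of the arm. The pericentromeric median was -0.069, beside -0.081 in the 3L block, -0.14 in the 3R block and -0.024 in the X block. Later males in HWT were thus not particular to 2L. The HWT male profile had the widest spread over the autosomes, with an SD of 0.14 against 0.096 in HWT females. With each profile brought to the same spread only 3 windows stayed later and 2 were earlier. In H4K16R the males were later than females in 9 of 242 windows (background 0.775%) and earlier in none (background 0.327%), with a median of -0.019 against -0.046 in HWT. Those 9 were all pericentromeric, and 3 of them, from 23490001, are cut short by the end of the arm. The pericentromeric median in H4K16R was -0.026, beside -0.014 in the 3L block, -0.030 in the 3R block and -0.024 in the X block. Brought to the same spread, H4K16R had 3 later windows and a median of -0.018, beside 3 and -0.024 in HWT.

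**Figure D5:**
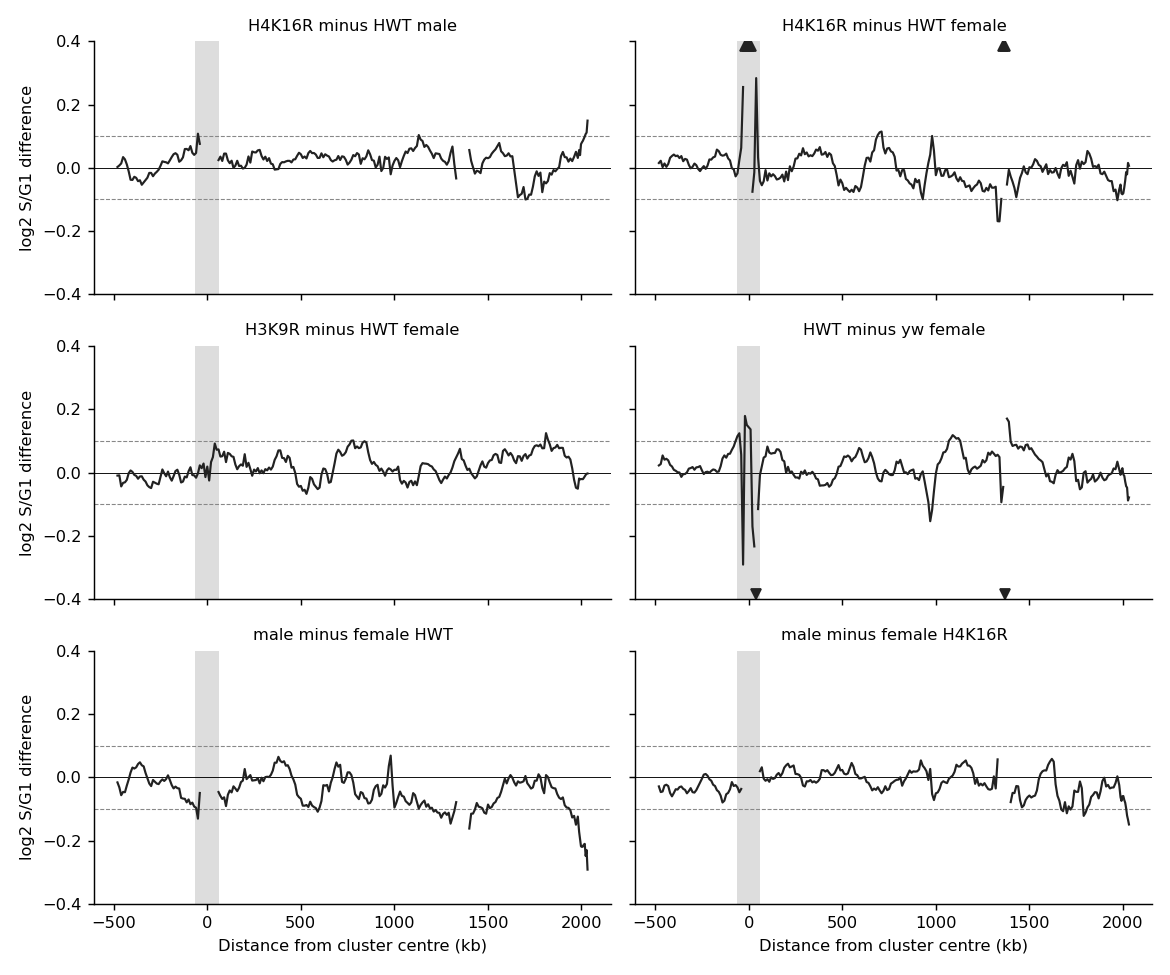
Difference in log2 S/G1 per 100 kb window for the 6 comparisons, by distance from the centre of the cluster (kb); dashed lines mark 0.1 in either direction, triangles mark windows beyond the axis and the grey band is the cluster. The differences beyond the axis sit over the cluster and near the other windows not listed in males, in the panels for H4K16R minus HWT and HWT minus yw in females, and HWT males against females is lowest at the end of the arm.

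RNA and timing can be read side by side at a few of the loci named above, which were not ranked by the size of their change. The window at Ac3 had a male timing difference of 0.022 and a female one of -0.035, and that at Lamp1 of 0.045 and -0.040. At Marf1 the male and female differences were 0.055 and -0.049. All of these are under the 0.1 used for a shift. At Clamp the male difference was 0.026 and the female one reached 0.10, while its RNA was not called in either sex. The female value rests on the HWT profile used: H4K16R females read 0.096 there, and HWT females -0.0080 in that profile and 0.012 in the one beside H3K9R. Windows are far longer than most of these genes, so the timing value belongs to the neighbourhood and not to the gene.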

How the data were processed

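Per the labels, RNA came from stranded libraries depleted of ribosomal RNA with ERCC spike-ins (12 libraries) and timing from sorted S and G1 nuclei (18 libraries). Build dm6 and the tools edgeR, limma, bedtools, SAMtools 1.6, Bowtie2 2.3.2, TopHat and Cufflinks 2.2.1 appear in the submitters' processing notes, without roles. Each RNA entry carries the log2 fold change the authors deposited and their adjusted p-value, read here as H4K16R over HWT with Benjamini-Hochberg adjustment, since the files state neither. The authors deposited timing as a linear S/G1 ratio for the female H4K16R table, of which log2 was taken here, and as values read as log2 in the others. The yw bins of 10 kb were averaged over each 100 kb window. How the authors counted by strand, filtered or smoothed was not given in the sources used here, and overlapping entries may share reads.

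Unadjusted p-values and standard errors were recovered from the deposited adjusted p-values, and the difference between the sexes was tested two-sided with adjustment over all 8264 matched entries. On simulated data of 8264 pairs this called 22% of changes of 1, 48% of changes of 2 and 0% of unchanged pairs. These rates hold for the made-up pairs only. How often the test between the sexes calls unchanged entries among the deposited edgeR values was not tested. Timing has 1 value per group and was not tested. Tests per library written into the design were replaced, because the files hold no library values. Python 3.11.15, numpy 2.4.6, pandas 2.3.3 and scipy 1.17.1 were used. Zones were the distal flank, the cluster, the proximal flank up to 22 Mb and the pericentromeric part. The genes named are the calls of the span, with a cap on the highest and lowest per sex, the 5 nearest the cluster on each side, Hr39, crc, Ret, dimm, tsh, tio, lt, cta, RpL5 and the histone supply list. The pths, Mcm10 and E2f2 entries and those used as landmarks of the timing profile were named after their values were seen. Members and lists were chosen with earlier results of these data known. Alternatives covered the thresholds, the adjustment, the matching, scaling and choice of HWT profile.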

Additional observations from a re-analysis of the deposited data

Results flagged for a closer look

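At 4 of 71 matched entries of proximal 2L the change in H4K16R against HWT differed between males and females. This stands beside 6.32% of 8264 matched entries over the genome and 3.39% on the large autosomes. The test of the difference was built on the deposited edgeR values and adjusted over all matched entries. With entries matched by an overlap above 0.9, 9 of 88 differed and 4 of these were lower in males. The male minus female log2 difference was 4.52 at Ir40a, where males stood at 3.52 and females at -0.9997 in the authors' deposited table. It was 1.95 at Marf1, with 1.70 in males and -0.25 in females in the authors' deposited table. It was 0.651 at nrv3, the gene nearest the cluster on its distal side, with 0.35 and -0.31 in the authors' deposited table. It was 0.474 at pths, at 0.44 in males and -0.033 in females per the authors' deposited table. None of the 4 female values passed the threshold. Fat body markers, lower in all 5 of 5 genes in H4K16R males, moved in the same libraries, and their part in these differences was not tested.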

How the results depend on the processing

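No paired analysis was possible because the files hold 1 value per comparison or group and none per library, and for the same reason no replicate could be left out, and no other normalization, pseudocount or low-count filter could be tried. The male RNA count of 27 became 16 at an adjusted p of 0.01, 15 with an absolute log2 fold change of at least 1, 7 with Holm adjustment, 13 among entries that match 1 RefSeq gene and 10 in the pericentromeric part. It was 23 with overlapping entries joined and 19 without the entries from the cluster up to that of Cul2, an alternative chosen after seeing the data. The female count of 1 became 0 in the pericentromeric part and 0 without those proximal entries. The count of 4 entries that differ between the sexes became 2 at an adjusted p of 0.01, 2 in the pericentromeric part, 9 with overlap above 0.9 and 11 with overlap above 0.8. Median timing differences moved as follows. Brought to 1 SD, H4K16R against HWT read 0.020 in males and 0.0080 in females, HWT against yw 0.0022 and males against females in HWT -0.024. In the pericentromeric part alone H4K16R against HWT read 0.032 in males and -0.021 in females, H3K9R against HWT 0.024 and males against females in HWT -0.069. With the HWT profile of the other female table, H4K16R against HWT in females read -0.018, H3K9R against HWT 0.037, HWT against yw 0.033 and males against females in HWT -0.060. In windows that do not overlap HWT against yw read 0.0047 and males against females in H4K16R -0.0086. HWT against yw turned to -0.0029 on centring. The exchanged HWT profiles differ in level by a median of -0.038 over the large autosome arms, and this offset was not removed. The cause of these moves was not tested. Of 56 alternative values for the main results 30 stayed near the reported one (counts within 1.5 times, medians within a 95% binomial interval of the median). For single named entries 43 alternatives ended a call and none reversed one. With a shift counted at 0.2 in place of 0.1, 8 counts of shifted windows moved by over 1.5 times and 4 did not, among them H4K16R earlier than HWT in females, at 8 in place of 12.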
